A study of Rattus norvegicus with 12 samples.

Results

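Brain RNA of an Alzheimer's disease model (AD) was compared with brain RNA of sham controls (Sham) across all genes. The members are the 4 AD and the 4 Sham columns of the deposited count table, 8 of the 12 libraries of the series, and they were chosen by their group labels alone. The remaining 4 libraries, AD-HFD, come from the same model with a high-fat diet. They enter the fits to share in the estimate of the spread, and a few of their levels are given for reference. All animals were kept free of specific pathogens. The labels do not say how the model was made or what the sham procedure was, and give no strain, sex, age, time point or brain region. Whether the 4 samples of a group are 4 animals is not stated either. The p-values measure only how these samples vary, and that variation may be technical. The label texts speak of mice, while the organism field and the gene identifiers are rat (Rattus norvegicus). Libraries are named by group and number, as in AD-3.

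In Alzheimer's disease, amyloid-beta peptides are cut from the precursor protein App, with the beta-secretase Bace1 making the first cut, and the microtubule protein tau (Mapt) forms aggregates inside neurons. Microglia sense these deposits through receptors such as Trem2, and complement proteins can mark synapses for removal. Astrocytes turn reactive, and chaperones, the unfolded protein response and antioxidant genes answer to damaged proteins and oxidants. Excitatory synapses of the cortex and hippocampus and cholinergic neurons are among the parts of the brain the disease affects.

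The libraries held between 26668974 (AD-4) and 35351792 (Sham-1) counts, and 18850 genes had enough counts to be tested, of them 3223 loci without a name. Levels are in CPM, counts scaled to a common library size. The number of genes with at least 10 counts was 18000 ± 193 in AD and 17996 ± 186 in Sham (SD, n = 4, exact permutation test, two-sided p = 0.971). Mitochondrially encoded genes took 13.1% ± 0.793 of counts in AD and 10.9% ± 0.388 in Sham (SD, n = 4, exact permutation test, two-sided p = 0.0286, the smallest that 4 against 4 allows, adjusted over both measures 0.0571). General neuronal genes, which any brain region should hold, averaged 8.35 to 9.09 log2 CPM in the 8 libraries.

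The AD libraries stood apart from each other in the markers of brain regions, and this comes before every result. The mean of 15 genes of cortical excitatory neurons was 6.98 to 7.33 log2 CPM in the 4 Sham libraries, 6.01 in AD-3, and between 2.23 and 3.36 in the other AD libraries. The mean of 14 thalamus genes was 1.92 to 2.67 in Sham and 1.90 in AD-3, but 4.17 to 6.51 in the other AD libraries. AD-2 was highest for genes of dopamine and serotonin neurons, at 5.87 against 0.74 to 0.86 in Sham, and AD-4 for hypothalamus genes, at 4.69 against -0.75 to -0.04 in Sham. Choroid plexus genes averaged 6.11 and 5.51 in Sham-2 and Sham-3 and no more than 0.29 in the other 6 libraries. By the distance of the list mean from the mean of the Sham libraries, AD-3 was the nearest AD library in 5 of 8 region lists, those of cortex, striatum, thalamus, monoamine neurons and patterning. AD-1 was nearest in hypothalamus genes (0.53, against 1.10 in AD-3), AD-2 in hippocampal genes, and AD-4 in interneuron genes (4.82, with AD-3 at 4.81). Fits with AD-3 alone and with a cortical covariate, given after the named genes, bear on part of these differences, and beyond them their part in the results was not tested. In bulk tissue, fewer cells of a type and less RNA per cell cannot be told apart.

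**Figure D1:**
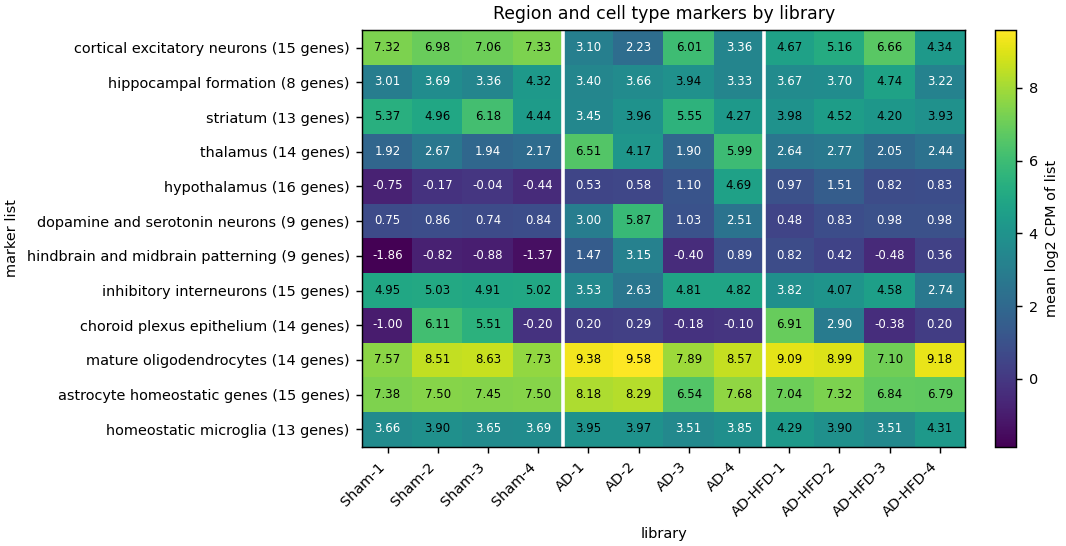
Mean log2 CPM of marker lists (rows, with the number of genes tested) in each of the 12 libraries (columns), coloured from low (dark) to high (bright), with the values printed. AD-3, at 6.01 and 1.90, lies nearer to the Sham libraries in cortical and thalamus genes than AD-1, AD-2 and AD-4 do.

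By edgeR's quasi-likelihood test at a Benjamini-Hochberg adjusted p under 0.05, 1174 genes differed between AD and Sham (6.23% of the genes tested). Of these, 579 were higher in AD (3.07%) and 595 lower (3.16%), and the median log2 fold change of all genes tested was 0.06. Genes past this threshold are written of as having risen or fallen. The median size of the change was 1.92 on the log2 scale among the risers and 1.68 among the falls, and 278 risers and 242 falls were over 4-fold. All 4 AD libraries lay beyond the Sham range in 486 of the 579 risers and in 589 of the 595 falls. Over all genes tested, groups that did not overlap made up 10.3% with AD above and 11.3% with AD below. AD-3 lay above the Sham range in 502 risers, fewer than AD-1 with 572, AD-2 with 571 and AD-4 with 576, and it lay below it in 589 falls. AD-3 was also the highest AD library in 223 of the risers, against 109, 151 and 96 for AD-1, AD-2 and AD-4. The risers thus hold genes that AD-3 does not share and genes that AD-3 leads. With single libraries left out the count of 1174 ran from 302 without Sham-1 to 2329 without AD-3. It was 529, 428 and 336 without Sham-2, Sham-3 and Sham-4, 728 without AD-2, 665 and 468 without AD-1 and AD-4, and 2270 and 1799 without AD-HFD-3 and AD-HFD-4. In what follows, "without any single Sham library" means that leaving out each of the 4 in turn gave that count. In all 12 fits that left out 1 library, 100 of the risers and 157 of the falls were called.

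**Figure D2:**
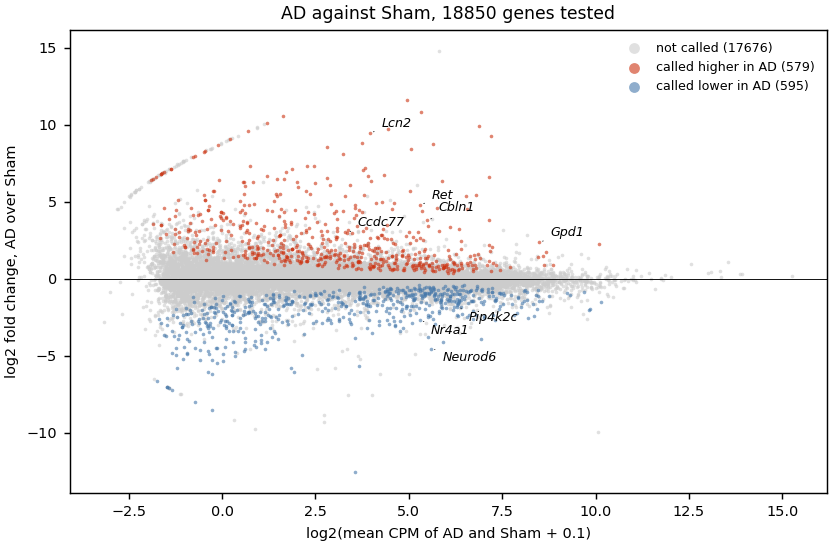
Log2 fold change of AD over Sham against the log2 of the mean CPM of the 2 groups (with 0.1 CPM added) for each of the 18850 genes tested. Red points are the 579 genes called higher, blue the 595 called lower, grey the rest, and 8 genes of the text are labelled.

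The spread within AD was larger than within Sham. The median SD of log2 CPM across all genes was 0.4 in AD and 0.21 in Sham, and 75.6% of genes had the larger SD in AD. Without AD-3 the median in AD was 0.24. The genes with an SD over 1 on the log2 scale numbered 2733 in AD, 1182 in AD without AD-3, and 955 in Sham.

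The genes named next were chosen as the 15 with the smallest p in each direction among called genes with a name, a mean of at least 5 CPM, no overlap between the groups and a call in every fit that left out 1 of the 8 libraries. That all 4 AD libraries lie on one side is therefore set by the choice. Before the last condition, 262 risers and 322 falls qualified, and 52 and 74 after it.

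The riser with the smallest p was Ccdc77, which encodes a coiled-coil protein. It stood at 16.2, 19.5, 17.3 and 18.5 CPM in AD-1 to AD-4 and at 2.22, 2.17, 2.31 and 2.18 CPM in Sham-1 to Sham-4. The 4 AD libraries were close to each other, and the log2 fold change was 3.0 ± 0.174 (SE, n = 4, adjusted p = 9.56e-06, edgeR). In AD-HFD it averaged 16.7 ± 2.63 CPM (SD, n = 4). Gpd1, the cytosolic glycerol-3-phosphate dehydrogenase that links glycolysis to lipid synthesis, was at 537, 582, 776 and 508 CPM in AD and at 94.4, 128, 145 and 99.7 CPM in Sham (log2 2.36 ± 0.269, adjusted p = 0.0013). Every AD library had more than 3 times the level of every Sham library. Ret, the signalling receptor for the GDNF family of growth factors, was at 67.2, 112, 61.3 and 64.6 CPM in AD and at 1.58, 2.68, 3.10 and 3.75 CPM in Sham (log2 4.78 ± 0.624, adjusted p = 0.00269). AD-2 was the highest, and AD-3 was close to AD-1 and AD-4. Cbln1, a secreted organizer of synapses, was at 102, 51.7, 64.4 and 118 CPM in AD and at 9.44, 5.30, 4.63 and 4.92 CPM in Sham (log2 3.79 ± 0.555, adjusted p = 0.00451).

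The guanine nucleotide exchange factor Arhgef40 averaged 56.3 ± 3.19 CPM in AD against 22.0 ± 2.68 in Sham (SD, n = 4, log2 1.36 ± 0.139). Srgap1, a GTPase-activating protein of Slit and Robo signalling, rose by 1.58 ± 0.199, and the small GTPase Rhoq by 1.11 ± 0.164. Amotl1, an angiomotin-family protein of cell junctions, averaged 16.0 ± 3.98 CPM against 3.25 ± 0.756, with AD-3 the lowest AD library at 10.8 CPM. The centrosomal gene Fgfr1op averaged 44.6 ± 5.47 CPM against 18.8 ± 1.04. Relt, a receptor of the tumour necrosis factor receptor superfamily, averaged 25.3 ± 3.26 CPM against 6.95 ± 1.70. Pex11a, which acts in peroxisome division, averaged 17.6 ± 4.85 against 5.06 ± 1.01 CPM, and Ciapin1, of cytosolic iron-sulfur cluster assembly, 59.7 ± 5.35 against 32.6 ± 2.26 CPM. Ndufa10l1, a copy related to a respiratory complex I gene, averaged 36.2 ± 3.91 CPM against 14.2 ± 3.78, and reads shared with its relative make it uncertain. The adjusted p of these 9 genes lay between 0.000763 for Arhgef40 and 0.00471 for Rhoq.

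Among the falls, the smallest p was that of Pip4k2c, a phosphatidylinositol phosphate kinase. It stood at 29.4, 33.9, 42.9 and 31.0 CPM in AD and at 139, 109, 109 and 133 CPM in Sham (log2 -1.84 ± 0.147, adjusted p = 0.000112). No AD library came within a factor of 2 of any Sham library. Lrrk2, a kinase tied to Parkinson's disease, and Rab29, the small GTPase that recruits it to membranes, both fell. Lrrk2 was at 21.4, 17.9, 26.6 and 14.7 CPM in AD and at 54.0, 48.5, 52.3 and 45.6 CPM in Sham (log2 -1.32 ± 0.176, adjusted p = 0.00279). Rab29 was at 12.2, 15.5, 12.6 and 10.4 CPM in AD and at 36.2, 30.6, 33.6 and 32.7 CPM in Sham (log2 -1.39 ± 0.15, adjusted p = 0.000992). Camkk2, the calcium-dependent kinase that activates AMPK, was at 12.0, 15.8, 13.4 and 10.6 CPM in AD and at 67.3, 55.6, 55.2 and 64.8 CPM in Sham (log2 -2.23 ± 0.262, adjusted p = 0.00158). AD-3 was near the middle of the AD libraries for Camkk2 and Rab29. In AD-HFD, Camkk2 averaged 11.5 ± 4.84 CPM and Rab29 23.4 ± 2.15 CPM (SD, n = 4).

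Cckbr, the brain receptor for cholecystokinin, was at 2.63, 5.92, 6.03 and 5.66 CPM in AD and at 45.4, 31.2, 38.1 and 43.0 CPM in Sham (log2 -2.96 ± 0.409, adjusted p = 0.00329). The receptor kinase Tyro3, which binds Gas6, averaged 132 ± 36.4 CPM against 391 ± 21.0, and the ligand ephrin B2 (Efnb2) 16.5 ± 4.33 against 60.8 ± 5.38 (SD, n = 4). The protocadherin Pcdhb8 averaged 2.98 ± 0.419 CPM against 9.48 ± 0.490, and reads shared within its gene cluster make it uncertain. Calhm2, of the calcium homeostasis modulator channel family, averaged 1.82 ± 0.776 against 13.1 ± 2.46 CPM. Lzts1, a leucine zipper protein of the postsynaptic density, averaged 37.1 ± 16.2 against 220 ± 23.0 CPM, and Lmo7 16.2 ± 5.23 against 56.4 ± 8.62 CPM. Lhx2, a homeobox regulator of the developing forebrain, averaged 9.14 ± 3.07 against 48.7 ± 8.37 CPM. Tnnc2, a troponin C, averaged 2.48 ± 1.29 against 19.4 ± 2.46 CPM, and the nuclease-domain gene Eepd1 6.37 ± 1.34 against 17.1 ± 2.15 CPM. The adjusted p of these 10 genes lay between 0.0013 for Calhm2 and 0.00378 for Tyro3.

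**Figure D3:**
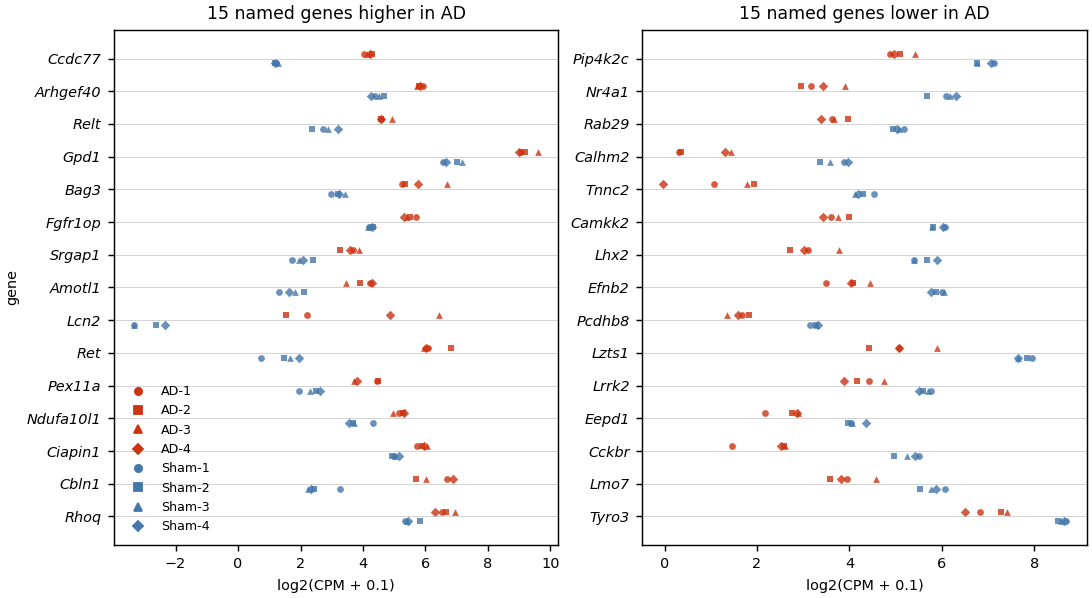
CPM (log2 scale, 0.1 added) of the 15 named risers (left) and the 15 named falls (right) in each AD (red) and Sham (blue) library, 1 symbol per library. The groups do not overlap, as the choice requires, and AD-3 (red triangle) stands out from the other AD libraries in Lcn2, Bag3 and Lzts1.

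AD-3 was the AD library nearest to Sham in cortical and thalamus genes, and 2 further fits bear on the named genes. With AD-3 as the only AD library, against all 4 Sham libraries, 1290 genes were called (972 higher, 318 lower), of which 296 were called in the same direction in the fit of all libraries. That is 25.2% of the 1174 calls and 22.9% of the 1290. The lone library was assumed to vary like the other groups. With the cortical list mean of each library as a covariate, 1438 genes were called (924 higher, 514 lower), and 239 of them were shared (20.4% of the 1174 and 16.6% of the 1438). The cortical mean did not overlap between AD and Sham, so in that fit the covariate and the group can be told apart only in part. Most genes called between the groups were not called in either fit. The 30 named genes were chosen for small p and no overlap, so their share is not to be set against that of all calls. With AD-3 alone all 30 kept their direction, which the choice had set, since AD-3 had to lie beyond the Sham range. With the covariate 24 were called, all in the same direction. Cckbr, Lmo7 and Tyro3 were called in neither (adjusted p 0.0695, 0.10 and 0.0709 with AD-3 alone), Lzts1 and Ndufa10l1 missed with AD-3 alone (0.0655 and 0.0709), and Camkk2, Lrrk2 and Pex11a missed with the covariate (0.0504 for Camkk2). Ccdc77 kept a log2 fold change of 2.95 ± 0.232 with AD-3 alone and 2.79 ± 0.241 with the covariate.

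Genes that set the AD libraries apart from each other were taken as the 6 per library that stood farthest above the highest of the other 3 AD libraries, and they are given with no test. In AD-1 they included Ctxn3 at 38.8 CPM, against 3.88 to 9.48 CPM in the other AD libraries, the Wnt receptor Fzd6, the receptor Vipr2 for vasoactive intestinal peptide and the transcription factor Foxp2. In AD-2 they included genes of monoamine neurons: the serotonin transporter Slc6a4 at 106 CPM, tryptophan hydroxylase Tph2 at 172 CPM, tyrosine hydroxylase Th at 209 CPM and the vesicular transporter Slc18a2 at 115 CPM. In AD-4 they included peptide genes of the hypothalamus: Oxt at 447 CPM with no counts in any Sham library, Pmch at 927 CPM, Hcrt at 112 CPM and Avp at 261 CPM. In AD-3 they included none of these: the cornified envelope gene Sprr1a at 294 CPM, the activin subunit Inhba at 102 CPM and the prostaglandin synthase Ptgs2 at 301 CPM. Ptgs2 was at 4.40 to 6.39 CPM in the other AD libraries, below its 23.7 to 48.6 CPM in Sham, and its log2 fold change without AD-3 was -2.66. Rtn4rl2 had the same pattern, with AD-3 above and the other AD libraries below the Sham range.

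The gene lists here were chosen with earlier results of these data known, so a count is a description and is to be read against the 3.07% and 3.16% of all genes. Counts are of the members tested. A gene nearly absent from Sham had enough counts to be tested only through AD or AD-HFD libraries. This favours risers in lists of such genes. Of 14 thalamus genes 9 rose and none fell (median log2 3.22), led by Shox2, Gbx2, Slc17a6 and Tcf7l2. Shox2, a homeobox gene, was at 64.7, 13.7, 0.185 and 38.6 CPM in AD and at 0.268 to 0.319 CPM in Sham, so AD-3 lay below the Sham range while the others lay far above it. Slc17a6, the vesicular glutamate transporter of subcortical neurons, was at 440, 278, 24.1 and 324 CPM in AD and at 9.29 to 26.2 CPM in Sham (log2 3.82 ± 0.687, adjusted p = 0.0107). With AD-3 alone its log2 fold change was 0.34 and 1 of the 14 thalamus genes rose; with the cortical covariate none did. Of 9 tested genes of hindbrain and midbrain patterning 4 rose, Irx3, Irx2, Irx1 and En2. Of 9 tested genes of dopamine and serotonin neurons 3 rose, Slc6a3, Th and Slc6a4. These lists held 20 and 16 genes of the count table, and the rest had too few counts to be tested. The count of 9 thalamus genes was 2 without Sham-4 or Sham-1 and 4 without Sham-3, Sham-2, AD-4 or AD-1. That of patterning genes was 2 without Sham-4, Sham-3 or Sham-1, and that of monoamine neurons was 1 without Sham-3, 5 without AD-HFD-3 or AD-HFD-2 and 9 without AD-3.

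Of 16 hypothalamus genes 5 rose: Gal, Trh, Avp, Cartpt and Pmch. Gal, the peptide galanin, was at 6.55, 9.45, 27.5 and 46.5 CPM in AD and at 0.292, 1.76, 2.25 and 0.837 CPM in Sham (log2 4.14 ± 0.678, adjusted p = 0.0073), and it rose with AD-3 alone (log2 4.44) and with the covariate (log2 4.94). Trh, thyrotropin-releasing hormone, was at 2.36, 2.16, 74.2 and 81.3 CPM in AD and at 0.234 to 0.555 CPM in Sham. Both peptides were higher in AD-3 and AD-4 than in AD-1 and AD-2, although Pmch had no counts in AD-3. Leaving out AD-3 raised the count of 5 to 8 and gave 2 falls, and leaving out AD-4 or AD-HFD-2 lowered it to 3. Leaving out Sham-2 gave 2, and any other Sham library 1. Trh was not called without Sham-4, Sham-3 or Sham-1 (adjusted p 0.0507 to 0.0598).

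Cortical genes were lower in AD. All 15 had a log2 fold change below 0 (median -2.32), and 13 had all AD libraries below the Sham range, where 11.3% of all genes did. By the test 3 fell: Lmo4, Neurod6 and Mef2c. Lmo4, a transcriptional cofactor, was at 52.4, 42.7, 124 and 55.8 CPM in AD and at 285, 289, 247 and 264 CPM in Sham (log2 -1.98 ± 0.378, adjusted p = 0.0135). The AD-3 value lay between the others and Sham. Without AD-3 11 of the 15 fell, without AD-HFD-3 6, without Sham-1 or AD-4 1, and with AD-3 alone none. None of 13 striatum genes passed the test (median -0.80, 4 falls without AD-3 and 1 without AD-HFD-4 or AD-HFD-3), and none of 8 hippocampal genes (median 0.22). None of 15 interneuron genes passed either (median -0.46). There 3 fell and 1 rose without AD-3, 2 fell without AD-HFD-3, and 1 fell without AD-HFD-4.

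Of 6 lists of synapse and excitability genes, 5 had a median log2 fold change below 0, from -0.90 to -0.29, and cholinergic genes had one of 0.62. Of 21 postsynaptic scaffold and kinase genes 20 had a log2 fold change below 0 (median -0.90), and 2 fell: Ppp3ca, the catalytic subunit of calcineurin, and Camk2n1, an inhibitor of CaMKII. Ppp3ca was at 151, 128, 224 and 120 CPM in AD and at 525, 454, 409 and 574 CPM in Sham (log2 -1.65 ± 0.422, adjusted p = 0.0405). Of 20 glutamate receptor genes 1 fell, the AMPA subunit Gria3, at 115, 91.0, 132 and 83.6 CPM against 401, 297, 298 and 336 CPM (log2 -1.66 ± 0.431, adjusted p = 0.0428). With the cortical covariate the log2 fold changes of Ppp3ca, Camk2n1 and Gria3 were -0.05, -0.15 and -0.10. The cortical list mean did not overlap between AD and Sham, so that fit tells the covariate and the group apart only in part. The cause was not tested. Without AD-3 9 of the postsynaptic genes fell, 7 without AD-HFD-3, 5 without AD-HFD-4. The calls of Ppp3ca and Camk2n1 were lost without any single Sham library, AD-4, AD-2 or AD-1 (adjusted p 0.0533 to 0.114), and that of Gria3 also without AD-HFD-2 (0.0525 to 0.123). The glutamate receptor falls numbered 2 without AD-HFD-4 and 5 without AD-HFD-3.

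Of 28 voltage-gated channel genes 2 fell and 1 rose. Cacng3, an auxiliary subunit of AMPA receptors named for its likeness to calcium channels, was at 25.3, 29.5, 40.8 and 33.4 CPM in AD and at 189, 134, 137 and 186 CPM in Sham (log2 -2.32 ± 0.346, adjusted p = 0.00471), and was called in all 12 fits that left out a library. The potassium channel subunit Kcnv1 fell too, with 18.2 CPM in AD-3 and at most 3.05 CPM in the other AD libraries against 72.1 to 97.5 CPM in Sham. Hcn4, a pacemaker channel subunit, rose by 2.70 ± 0.601. Of 15 GABA-A receptor subunits 7 had a log2 fold change above 0 (median -0.29). Gabra5 fell, at 35.3 to 45.6 CPM in AD against 103 to 124 CPM in Sham, and Gabre rose, at 2.84 to 15.3 CPM against 0.204 to 0.438 CPM. Among 24 vesicle genes Slc17a6 and Sv2c rose. Of 19 cholinergic genes 13 had a log2 fold change above 0 (median 0.62), and the muscarinic receptors Chrm1 and Chrm4 fell and acetylcholinesterase, Ache, rose. Ache was at 142, 182, 29.5 and 183 CPM in AD and at 32.4 to 41.1 CPM in Sham, so AD-3 lay below Sham, and with AD-3 alone its log2 fold change was -0.26. The channel falls numbered 7 without AD-HFD-3, 4 without AD-3, and 1 when Sham-1 or AD-4 was left out. The calls of Gabra5, Ache and Chrm4 were lost without any single Sham library, AD-4, AD-2 or AD-1 (adjusted p 0.0502 to 0.112), that of Gabre without Sham-4 (0.0537), and that of Hcn4 without AD-1, AD-4 or any single Sham library (0.0591 to 0.0825). The call of Chrm1 was lost without Sham-4, Sham-3, Sham-1, AD-4, AD-2 or AD-1 (0.0535 to 0.0742). The cholinergic risers numbered 6 without AD-HFD-3, 4 without AD-HFD-4, 3 without AD-HFD-2 or AD-3 and 2 without AD-HFD-1, and 7 vesicle genes fell without AD-HFD-3 and 4 without AD-3. The GABA-A falls numbered 3 without AD-HFD-4 and 4 without AD-HFD-3. Kcnv1 lost its call without Sham-1 or AD-4, and Sv2c without Sham-4, Sham-2, Sham-1, AD-HFD-2, AD-4 or AD-2.

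None of 16 genes of amyloid precursor processing passed the test (median log2 0.08), a list with 3.07% and 3.16% of all genes as background. App was at 2196, 2028, 1872 and 2063 CPM in AD and at 2585, 2141, 2308 and 2266 CPM in Sham (log2 -0.19 ± 0.178, adjusted p = 0.559). The groups overlapped, with AD-1 above Sham-2. Bace1 had a log2 fold change of 0.22 ± 0.192. The amyloid-degrading enzyme Ide was at 49.4 to 62.4 CPM in AD against 36.3 to 43.7 CPM in Sham (log2 0.43 ± 0.169, adjusted p = 0.151), and was picked out after its values were seen. Without AD-HFD-3, 2 genes of this list rose. Of 15 genes of tau and its kinases the microtubule-affinity kinase Mark2 fell, at 35.6, 35.3, 63.7 and 40.5 CPM against 90.5, 83.1, 79.6 and 88.7 CPM (log2 -0.97 ± 0.210, adjusted p = 0.0224). Its call was lost without Sham-4, Sham-3, Sham-1, AD-4, AD-2 or AD-1 (adjusted p 0.0516 to 0.0789). Mapt itself was at 318 to 469 CPM in AD and at 559 to 629 CPM in Sham (log2 -0.49 ± 0.248, adjusted p = 0.25). None of 19 Alzheimer risk genes passed (median 0.38), with Apoe at 0.15 ± 0.240 and Trem2 at -0.44 ± 0.259; 1 rose without AD-HFD-4 and 4 without AD-HFD-3. The neuronal marker Rbfox3 was at 42.4 to 85.8 CPM in AD against 134 to 174 CPM in Sham (log2 -1.45 ± 0.437, adjusted p = 0.0691), and the vesicle protein Syp at -0.42 ± 0.368 did not pass.

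Genes of glial cell types gave few calls. None of 14 genes of mature oligodendrocytes passed, although all 14 had a log2 fold change above 0 (median 0.91); 3 rose without AD-HFD-3 and 1 without AD-3. On average they stood at 9.38 and 9.58 log2 CPM in AD-1 and AD-2, 7.89 in AD-3, 8.57 in AD-4 and 7.57 to 8.63 in Sham. Mbp, the myelin basic protein, was at 21777, 27619, 6635 and 9595 CPM in AD and at 4568 to 12003 CPM in Sham (log2 1.11 ± 0.634, adjusted p = 0.314). None of 15 homeostatic astrocyte genes passed (median 0.40), and their list mean was 7.68 to 8.29 in the AD libraries other than AD-3, above the 7.38 to 7.5 in Sham, but 6.54 in AD-3. Gjb6, an astrocyte connexin, was split in the same way, with 2.25 CPM in AD-3, 31.2 to 38.9 CPM in Sham and 56.0 to 95.3 CPM in the remaining AD libraries; it was picked out after its values were seen. Without AD-3 5 of these astrocyte genes rose, without AD-HFD-3 1, and with AD-3 alone 4 fell. Of 13 homeostatic microglia genes the integrin Itgam rose, and the microglial marker Aif1 was at 9.11 to 14.1 CPM in AD and at 9.14 to 10.9 CPM in Sham (log2 0.16 ± 0.257). The Itgam call was lost without AD-4 or any single Sham library (adjusted p 0.0709 to 0.0927). Without AD-HFD-3 or AD-HFD-4 2 microglia genes rose.

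Oligodendrocyte precursor, endothelial, leptomeningeal, choroid plexus and ependymal lists had no member called. With 1 library left out, 2 precursor genes rose without AD-HFD-3, and 2 endothelial genes without AD-HFD-4 and 1 without AD-HFD-3. Of the leptomeningeal genes 1 fell without AD-HFD-1 and 2 when AD-HFD-3 was left out. Of the choroid plexus genes 2 fell without AD-HFD-1 or AD-HFD-3 and 1 without AD-3 or AD-HFD-4. Of 12 pericyte and smooth muscle genes Abcc9 rose (log2 0.81 ± 0.173), a call lost without Sham-4, Sham-3 or Sham-1, and the list had 3 risers without AD-HFD-4 and 2 without AD-HFD-3. None of 16 antigen presentation genes passed, and 1 fell without AD-3, AD-HFD-3 or AD-HFD-4. None of 15 general neuronal genes passed, with 3 falls without AD-HFD-3.

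Complement genes of the C1q complex, which starts the classical cascade, rose. Of 20 complement genes 5 rose and none fell (median 0.85): C1qb, C1qc, C1qa, Itgam and the C3a receptor C3ar1. C1qb was at 40.6, 42.3, 80.3 and 84.2 CPM in AD and at 22.8, 24.6, 26.6 and 24.6 CPM in Sham (log2 1.33 ± 0.247, adjusted p = 0.0121). AD-3 and AD-4 stood at about the same level, above AD-1 and AD-2, and all 4 lay above Sham. C1qb and C1qc were called also with AD-3 alone (log2 1.70 and 1.88) and with the cortical covariate (1.62 and 1.79). The count of 5 was 1 without Sham-4, 2 without Sham-3, Sham-2, Sham-1 or AD-4, 8 without AD-HFD-4 and 9 without AD-HFD-3. C1qb was called in all 12 of these fits, C1qc in all but that without Sham-4 (adjusted p = 0.0518), and C1qa was not called without AD-4 or any single Sham library (0.0570 to 0.0873).

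Of 22 genes of disease-associated microglia 3 rose (median 1.13): Igf1, Spp1 and Lgals3. Igf1, insulin-like growth factor 1, was at 4.43, 3.0, 3.75 and 3.74 CPM in AD and at 1.11, 1.28, 1.56 and 1.10 CPM in Sham (log2 1.56 ± 0.230, adjusted p = 0.00467). The 4 AD libraries were close together, and the change was 1.55 without AD-3, 1.56 with AD-3 alone and 1.59 with the covariate. Spp1, osteopontin, was at 35.6, 229, 511 and 353 CPM in AD and at 0.876, 8.4, 1.22 and 1.21 CPM in Sham (log2 6.59 ± 1.07, adjusted p = 0.00721). Its 4 AD values spread over more than 10-fold but lay above every Sham value. Of 13 genes of border macrophages and blood leukocytes 5 rose (median 1.97): Cd163, S100a8, S100a9, F13a1 and Mrc1. Cd163, a haemoglobin scavenger receptor of border macrophages, was at 3.88, 3.85, 4.12 and 2.76 CPM in AD and at 0.467, 0.639, 0.170 and 0.335 CPM in Sham (log2 3.16 ± 0.580, adjusted p = 0.0117). The neutrophil gene S100a9 was at 12.8, 9.60, 27 and 10.8 CPM in AD and at 1.40, 0.479, 0.987 and 0.268 CPM in Sham (log2 4.24 ± 0.798, adjusted p = 0.0129). Red blood cell genes averaged 3.94, 4.18, 5.36 and 3.95 log2 CPM in AD and 3.75 to 4.38 in Sham, and their part in these results was not tested. The leukocyte count of 5 was 2 without Sham-4 and 3 without Sham-3, Sham-1, AD-4 or AD-1, and that of disease-associated microglia was 7 without AD-HFD-3 and 5 without either AD-2 or AD-1. Lgals3 lost its call without AD-4 or any single Sham library.

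The lists of reactive astrocytes, cytokines, feedback genes, matrix and axon injury each had 5 to 8 members that rose and none that fell, and AD-3 was the highest AD library in all of the called genes of 4 of these lists and in 5 of 7 of axon injury. Among 30 genes of reactive astrocytes 8 were risers, with no falls (median 2.10), led by Lcn2, Cd14, Hspb1 and Timp1. Lcn2, a secreted lipocalin, was at 4.57, 2.83, 87.0 and 29.2 CPM in AD and at 0, 0.0639, 0 and 0.10 CPM in Sham (log2 9.45 ± 1.43, adjusted p = 0.00234). Timp1, an inhibitor of metalloproteinases, was at 6.96, 3.41, 418 and 35 CPM in AD and at 0.847 to 1.84 CPM in Sham. In both genes AD-1 and AD-2 were above Sham but far under AD-3. The list mean was 2.14, 2.18, 5.37 and 3.53 log2 CPM in AD-1 to AD-4 and 1.42 to 1.87 in Sham. Gfap, the astrocyte filament, was at 473, 517, 2520 and 1228 CPM in AD and at 212, 478, 470 and 368 CPM in Sham, and did not pass (log2 1.63 ± 0.698, adjusted p = 0.179), with AD-1 inside the Sham range. With AD-3 alone 20 of the 30 genes rose, and with limma voom none did. The count of 8 dropped to 5 without AD-4 or AD-3, and likewise without AD-HFD-2 or AD-HFD-1. It was 3 without Sham-2 and 1 without any other Sham library.

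Of 25 cytokines and chemokines 6 rose (median 2.41), led by Ccl7, Lif, Ccl4 and Ccl2. With AD and Sham libraries only, 13 of them had enough counts to be tested, 5 rose and the median was 1.10. The others were tested only because the AD-HFD libraries were in the fit. Lif, a cytokine of the interleukin-6 family, was at 0.450, 0.263, 38.7 and 3.27 CPM in AD and at 0.175, 0, 0 and 0.0670 CPM in Sham (log2 7.30 ± 1.55, adjusted p = 0.0133). Osmr, a receptor subunit of the same family, and the downstream Stat3 and Socs3 rose as well, among 5 of 21 genes of NF-kB and STAT3 feedback. Stat3 was at 105, 72.1, 348 and 171 CPM in AD and at 60.4, 57.2, 58.4 and 55.6 CPM in Sham (log2 1.59 ± 0.375, adjusted p = 0.0307). Socs3, its feedback inhibitor, was at 1.84, 3.53, 63.7 and 15.2 CPM in AD and at 0.256 to 0.351 CPM in Sham (log2 6.10 ± 1.11, adjusted p = 0.0111), and Bcl3 rose by 4.2 ± 0.885. The order AD-3, then AD-4, then AD-1 and AD-2 held for Lif, Stat3 and Socs3. The cytokine count of 6 was 0 without any single Sham library and 10 without AD-HFD-3, and with limma voom it was 0. The feedback count of 5 was 1 without any single Sham library, 2 without AD-4 and 3 without AD-HFD-2, AD-HFD-1 or AD-3, and Socs3 was called in all 12 fits. With limma voom none of the feedback genes was called. Without AD-3 the log2 fold changes were 4.24 for Lif, 1.00 for Stat3 and 4.47 for Socs3. Ccl3 and Ccl4 are related genes, and whether they share reads was not tested.

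Of 30 matrix and wound genes 5 rose (median 1.46), among them Adamts4, Timp1 and Lox. Adamts4, an aggrecan-cleaving protease, was at 105, 96.9, 124 and 87.9 CPM in AD and at 18, 35.9, 39.4 and 20.3 CPM in Sham (log2 1.86 ± 0.338, adjusted p = 0.0110), level across the AD libraries and called in all 12 fits. Of 19 genes of axon injury and regeneration 7 rose (median 1.96), led by Gal, Ecel1, Hspb1 and Gadd45a. Ecel1, an endopeptidase-like enzyme induced in injured neurons, was at 19.0, 12.9, 28.4 and 83.0 CPM in AD and at 4.0, 3.74, 4.86 and 2.34 CPM in Sham (log2 3.26 ± 0.600, adjusted p = 0.0117), and it was highest in AD-4. Atf3, a transcription factor of axon injury picked out after its values were seen, was at 3.71, 1.08, 39.9 and 26.9 CPM in AD and at 0.263 to 1.19 CPM in Sham, with AD-2 inside the Sham range. The matrix count of 5 was 1 without any single Sham library, 8 without AD-HFD-3 or AD-2 and 11 without AD-HFD-4, and the axon injury count of 7 was 2 without any single Sham library and 3 without AD-4. With limma voom the 2 counts were 1 and 2.

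**Figure D4:**
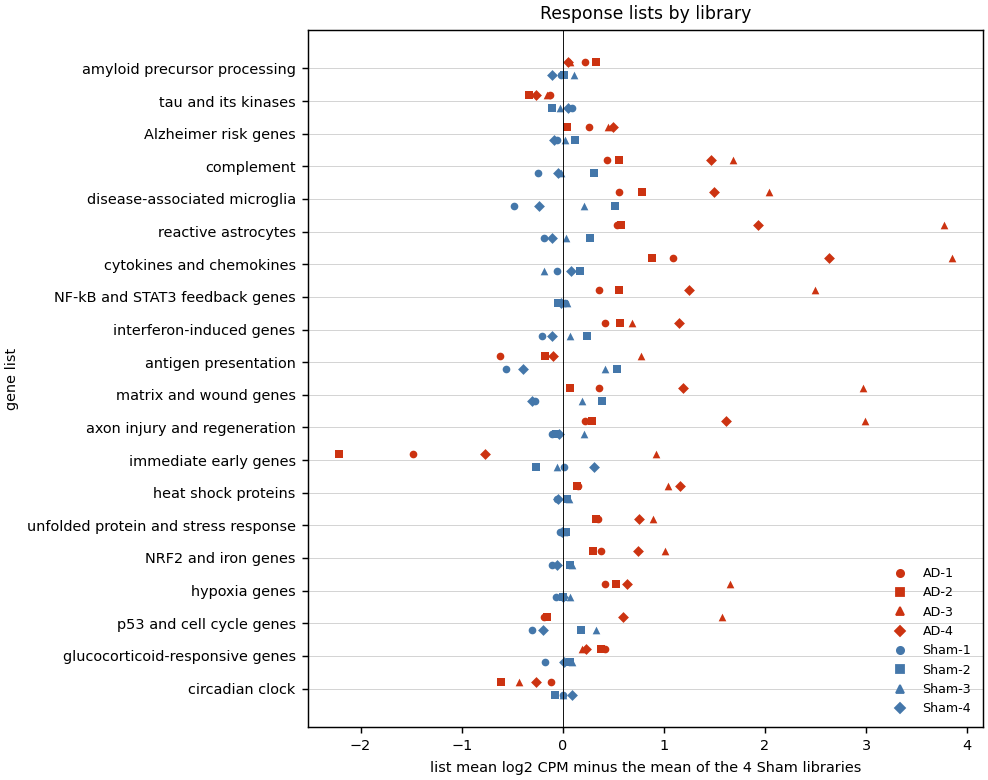
Mean log2 CPM of 20 response lists in each AD (red) and Sham (blue) library, given as the distance from the mean of the 4 Sham libraries. AD-3 (red triangle) is the highest AD library in 13 of the 20 lists, but not in those of amyloid, tau, risk, interferon, heat shock, glucocorticoid and clock genes, and in immediate early genes AD-3 lies above Sham while the other AD libraries lie below it.

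Chaperone genes rose in part. Of 19 heat shock genes 3 rose: Bag3, Cryab and Hspb1 (list median 0.40). Bag3, a co-chaperone that hands misfolded proteins to autophagy, was at 37.7, 40.8, 104 and 54.3 CPM in AD and at 7.71, 9.11, 10.7 and 9.21 CPM in Sham (log2 2.69 ± 0.317, adjusted p = 0.00158). It rose also without AD-3 (log2 2.27), with AD-3 alone (3.5) and with the cortical covariate (3.41). Cryab, the small heat shock protein alpha B-crystallin, was at 120, 149, 155 and 165 CPM in AD and at 38.3, 56.0, 72.8 and 41.9 CPM in Sham (log2 1.5 ± 0.304, adjusted p = 0.0184), and Hspb1 was at 11.5, 18.6, 740 and 104 CPM against 3.16 to 6.43 CPM. Cryab was level across the AD libraries and Hspb1 was not. The inducible Hspa1a was at 0.0346, 0.0292, 50.2 and 169 CPM in AD and at 3.18 to 3.54 CPM in Sham, 2 AD libraries far below and 2 far above the controls, and did not pass (log2 4.05 ± 1.49, adjusted p = 0.124). Its near-identical copies make it uncertain. The constitutive chaperones Hspa8 and Hsp90ab1, picked out after their values were seen, had log2 fold changes of 0.15 and -0.03. In the whole list 16 of the 19 genes had one above 0. The count of 3 was 1 without Sham-4 or Sham-1.

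The promoters of the called heat shock genes are shown because heat shock factor binds inverted GAA repeats. The letters GAANNTTC, the same on both strands, were searched in RefSeq promoters of the assembly GRCr8 that run from 250 bases before to 50 after a gene's start. Of 27457 promoters 8.34% held them. Both called genes with an entry held them, and so did 8 of 13 heat shock genes that were not called. Capitals mark the matches in Bag3 (chr1:192533210-192533509, plus strand) and Hspb1 (chr12:26432252-26432551, minus strand).
Bag3: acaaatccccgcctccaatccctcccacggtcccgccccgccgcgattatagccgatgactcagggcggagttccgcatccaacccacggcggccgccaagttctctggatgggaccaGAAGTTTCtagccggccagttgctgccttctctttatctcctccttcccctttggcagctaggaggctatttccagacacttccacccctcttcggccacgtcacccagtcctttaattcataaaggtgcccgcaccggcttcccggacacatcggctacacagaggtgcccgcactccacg
Hspb1: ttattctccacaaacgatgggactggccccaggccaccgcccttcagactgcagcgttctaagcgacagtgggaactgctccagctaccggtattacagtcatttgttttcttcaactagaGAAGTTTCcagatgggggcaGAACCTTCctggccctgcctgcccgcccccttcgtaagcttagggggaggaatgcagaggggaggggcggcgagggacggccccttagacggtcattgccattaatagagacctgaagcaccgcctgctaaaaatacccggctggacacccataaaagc
The letters do not part the genes that rose from those that did not.

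Stress genes of the endoplasmic reticulum leaned upward together. Of 24 genes of the unfolded protein and stress response all had a log2 fold change above 0 (median 0.57), against a median of 0.06 over all genes, and 13 had every AD library above the Sham range, where 10.3% of all genes did. By the test 2 rose, Sesn2 and Hspa5. Hspa5, the chaperone BiP, was at 545, 474, 725 and 672 CPM in AD and at 344, 354, 311 and 296 CPM in Sham (log2 0.89 ± 0.211, adjusted p = 0.0313). Sesn2, a stress-induced sestrin, was at 23.7, 26.8, 78.4 and 36.8 CPM in AD and at 12.8 to 17.0 CPM in Sham (log2 1.48 ± 0.323, adjusted p = 0.0227). The list mean was 5.80, 5.78, 6.34 and 6.20 log2 CPM in AD-1 to AD-4 and 5.42 to 5.48 in Sham, so the groups did not overlap. The count of 2 was 0 without any single Sham library, 1 without AD-4, 4 without AD-HFD-4 and 8 without AD-HFD-3, and with the replicate number as a block it was 0.

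Of 18 genes of the NRF2 response and iron handling Hmox1, haem oxygenase, rose, at 10.4, 14, 591 and 99.6 CPM in AD and at 3.72 to 4.93 CPM in Sham (log2 5.35 ± 1.12, adjusted p = 0.0203). Of 20 hypoxia genes 3 rose: Adm, Angptl4 and Egln1. Adm, the vasodilator peptide adrenomedullin, was at 5.06, 4.99, 18.3 and 5.30 CPM in AD and at 0.555, 0.831, 1.02 and 1.31 CPM in Sham (log2 3.19 ± 0.651, adjusted p = 0.0185). Egln1, the oxygen-sensing prolyl hydroxylase, was at 37.6 to 53.3 CPM in AD and at 18.6 to 26.9 CPM in Sham (log2 0.82 ± 0.190). Of 21 p53 and cell cycle genes Cdkn1a, the inhibitor p21, Gadd45a and Gadd45g rose. Cdkn1a was at 38.5, 13.2, 57.9 and 48.3 CPM in AD and at 4.41, 11.1, 11.9 and 4.49 CPM in Sham (log2 2.31 ± 0.456, adjusted p = 0.0161), with AD-2 just above Sham. It was also the single riser of 17 glucocorticoid-responsive genes (0 without Sham-4 or Sham-1, 2 without AD-HFD-3 and 3 without AD-3, with 2 falls without AD-HFD-3). Without any single Sham library the counts of hypoxia and NRF2 genes were 0, and that of p53 genes was 0 without Sham-4 or Sham-1 and 1 without Sham-3, Sham-2 or AD-4. Without AD-HFD-3 the 3 counts were 5, 5 and 5, without AD-2 that of NRF2 genes was 2, and without AD-4 that of hypoxia genes was 1.

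Immediate early genes, which neurons switch on with activity, split into parts. Of 23 such genes none rose and 3 fell, all of the Nr4a family of nuclear receptors. Nr4a1 was at 8.87, 7.70, 14.8 and 10.7 CPM in AD and at 67.9, 51.1, 72.6 and 79.5 CPM in Sham (log2 -2.69 ± 0.254, adjusted p = 0.000512). Nr4a3 was at 1.87, 1.49, 9.35 and 3.52 CPM in AD and at 20, 24.9, 28.7 and 31.7 CPM in Sham (log2 -2.69 ± 0.510, adjusted p = 0.0131). Nr4a2 was at 9.11, 12.6, 11.1 and 5.01 CPM in AD and at 26.8, 17.9, 23.0 and 28.7 CPM in Sham (log2 -1.35 ± 0.302, adjusted p = 0.0250). In all 3 genes AD-3 lay below the Sham range, but in Nr4a1 and Nr4a3 it was the AD library nearest to Sham. In Nr4a3 it stood at 9.35 CPM, with the other AD libraries at 1.49 to 3.52 CPM. Of the other 20 immediate early genes AD-3 lay above the Sham range in 15 and below it in 1. The share of all genes tested with AD-3 above or below that range was not worked out. These counts therefore have no background and only describe the list.

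Nptx2 and Arc were picked out after their values were seen. Nptx2, a secreted pentraxin, was at 70.7, 34.5, 1821 and 97.6 CPM in AD and at 52.3 to 85.1 CPM in Sham. Arc, a regulator of AMPA receptor trafficking, was at 8.24, 8.05, 80.3 and 14.2 CPM in AD and at 60.2 to 86.7 CPM in Sham, so that AD-3 lay within the Sham range. Fos, a subunit of the AP-1 transcription factor, was at 18, 8.26, 67.9 and 47.3 CPM in AD and at 9.23 to 14.4 CPM in Sham (log2 1.60 ± 0.536, adjusted p = 0.0963). Without AD-3 9 of the 23 genes fell, among them Arc (log2 -2.96), and with AD-3 alone 6 rose and 1 fell. That 1 was Nr4a1 (log2 -2.21, adjusted p = 0.0156), which fell with the cortical covariate too (log2 -2.30, adjusted p = 0.0102), while Nr4a2 and Nr4a3 did not pass in either fit. Nr4a2 was not called without Sham-4, Sham-3, Sham-1, AD-4 or AD-1 (adjusted p 0.0561 to 0.0873), and in AD-HFD Nr4a1 averaged 45.3 ± 12.6 CPM (SD, n = 4).

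Activity reaches such genes partly through CREB, which binds the letters TGACGTCA or their core TGACG. The full letters stood in 1.91% of the 27457 promoters and in none of the 6 called immediate early and clock genes with an entry, against 2 of 25 not called. The core, which the full letters contain, stood in 22% of promoters, in 4 of the 6 and in 9 of the 25. The promoters of Nr4a1 (chr7:134259888-134260187, plus strand) and Nr4a2 (chr3:62104838-62105137, minus strand) are shown because the Nr4a genes fell while others of the list did not, with capitals for the core on either strand.
Nr4a1: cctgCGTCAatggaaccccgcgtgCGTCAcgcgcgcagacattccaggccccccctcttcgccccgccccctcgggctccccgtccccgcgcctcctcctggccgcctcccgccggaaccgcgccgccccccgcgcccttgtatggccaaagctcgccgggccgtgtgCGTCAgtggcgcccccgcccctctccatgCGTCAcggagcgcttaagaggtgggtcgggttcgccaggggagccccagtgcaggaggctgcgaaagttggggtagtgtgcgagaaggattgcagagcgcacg
Nr4a2: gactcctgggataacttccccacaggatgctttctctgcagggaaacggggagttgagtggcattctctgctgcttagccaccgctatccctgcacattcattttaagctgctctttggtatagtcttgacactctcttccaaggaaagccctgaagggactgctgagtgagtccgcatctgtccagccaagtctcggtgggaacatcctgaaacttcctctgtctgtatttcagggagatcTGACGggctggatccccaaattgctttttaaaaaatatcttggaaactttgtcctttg
Nr4a1 held 4 matches and Nr4a2 held 1.

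Of 17 clock genes Per2, Nr1d1 and Ciart fell and Nfil3 rose. Per2 was at 20.2, 18.7, 33.5 and 23.4 CPM in AD and at 47.5, 41.0, 45.8 and 54.5 CPM in Sham (log2 -0.98 ± 0.246, adjusted p = 0.0389). Nr1d1, the repressor REV-ERB alpha, was at 66.1 to 125 CPM in AD and at 140 to 185 CPM in Sham. The riser Nfil3 was at 11.3, 12.3, 70 and 23.4 CPM in AD against 7.06 to 7.63 CPM in Sham. The labels give no time of day. The 3 falls were 0 without AD-2, AD-4 or any single Sham library and 1 without AD-HFD-2 or AD-1, with adjusted p of 0.0514 to 0.138 where the calls were lost. Nr1d1 lost its call without AD-3 too, and Ciart without AD-HFD-1. Nfil3 was not called without AD-4, AD-HFD-1, AD-HFD-2 or any single Sham library.

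Metabolic genes gave scattered calls. Of 22 glycolysis and lactate genes the transporter Slc16a1 rose, at 86.4, 97.5, 114 and 96.4 CPM in AD and at 41.0, 60.1, 55.1 and 46.0 CPM in Sham (log2 0.96 ± 0.222), and the transporter Slc16a7 fell, at 2.16 to 3.82 CPM against 5.68 to 6.92 CPM (log2 -1.17 ± 0.239). Both carry lactate and pyruvate. Of 13 genes of betaine and the methionine cycle Bhmt and Dmgdh fell and were called in all 12 fits. Bhmt, which makes methionine from betaine, was at 0, 0.117, 0.646 and 0.254 CPM in AD and at 9.79, 9.27, 9.87 and 4.25 CPM in Sham (log2 -4.98 ± 0.843, adjusted p = 0.00762). Of 26 insulin and IGF genes Igf1 and the adaptor Grb10 rose, of 24 lipid droplet and fatty acid genes Angptl4 and Plin2, and of 23 cholesterol synthesis genes the cyclase Lss, at 44.9 to 59.0 CPM against 22.3 to 33.2 CPM (log2 1.00 ± 0.205, adjusted p = 0.0190). None of 44 nuclear genes of the respiratory chain passed (median -0.05), nor of 13 mitochondrially encoded ones (median 0.18), 25 lysosome and autophagy genes (0.18) or 27 proteasome genes (0.03). Without AD-HFD-3 the cholesterol and the lipid droplet lists had 4 risers each, and without AD-3 3 insulin and IGF genes fell. Lss lost its call without Sham-4, Sham-2 or Sham-1, Slc16a1 without Sham-4, Sham-3, Sham-1 or AD-4, Slc16a7 without Sham-4, Sham-1, AD-4, AD-2 or AD-1, and Plin2 without AD-4, AD-HFD-2 or any single Sham library. Grb10 lost it without any single Sham library, AD-4, AD-2 or AD-1 (adjusted p 0.0601 to 0.101).

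Among the called genes 26 had no counts at all in 1 of the groups, 18 with none in Sham and 8 with none in AD, and 17 of the 26 were loci without a name. Such genes could be tested only through their counts in other libraries. Their share among all genes tested was not worked out, so the number is a description. The examples were picked out after their values were seen. The locus LOC103690108 had 2929 counts in Sham, at 19.4, 24.8, 28.8 and 21.5 CPM, and none in AD, at least 955-fold lower when the 4 AD libraries together are set to a floor of 3 counts. In AD-HFD it was at 0.657 to 2.83 CPM. Ifit1, an interferon-induced gene and the single riser of 25 such genes, was at 4.99, 7.59, 3.94 and 7.47 CPM in AD with no counts in Sham, at least 251-fold higher. That list had 2 risers without AD-1 and 4 without AD-HFD-3. Growth hormone, Gh1, was at 0.727, 0.788, 1.23 and 1.31 CPM in AD with no counts in Sham, at least 42.2-fold higher. These values were level across the AD libraries, AD-3 included, unlike those of the homeobox gene Irx5, which had 391 counts in AD and none in AD-3 or Sham. Floors cover counting error only. The loci without a name made up 23.4% of the called genes (275) and 17.1% of the genes tested.

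**Figure D5:**
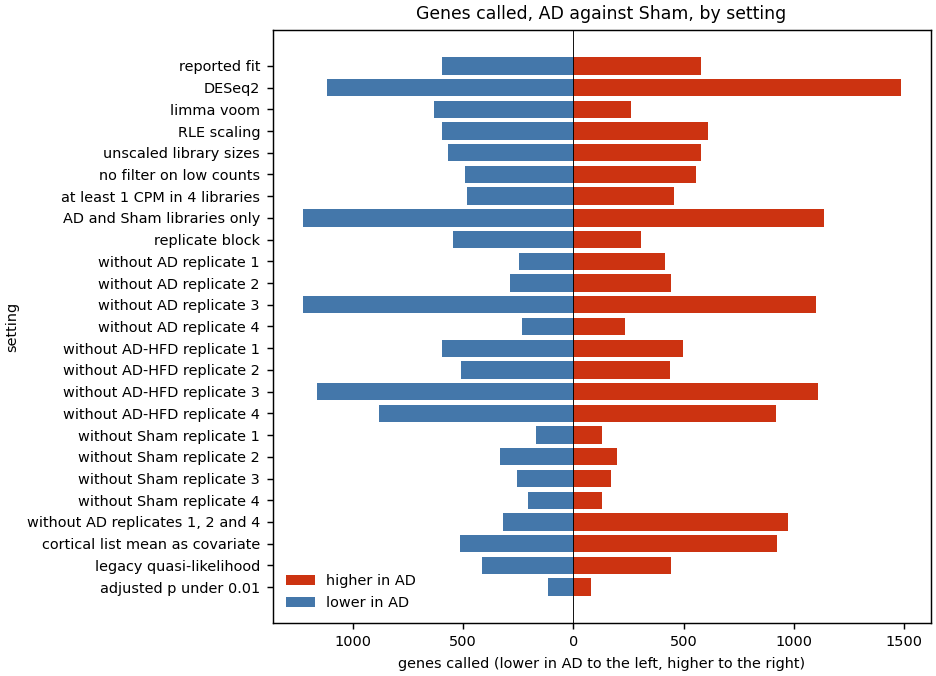
Number of genes called lower (blue, to the left) and higher (red, to the right) in AD under the reported fit and each alternative. The counts run from 302 in all without Sham-1 to 2600 with DESeq2 among fits at the same threshold, and limma voom with 262 higher and 632 lower and the replicate block with 307 and 544 move the balance toward falls.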

How the data were processed

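RNA sequencing libraries of 12 rat brain samples in 3 groups of 4 were used: Sham, AD and AD-HFD. The authors deposited raw counts per gene, per the file headers, for 31177 genes, and total counts per library ran from 26668974 to 35351792. FastQC and Trimmomatic are named in the submitters' processing notes. The aligner, the counter, its use of strand and the genome build are not given in the sources used here. Reads of overlapping and antisense genes cannot be told apart.

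From the counts, genes were kept by edgeR's filterByExpr, scaled by TMM and fitted with the edgeR 4.0.16 quasi-likelihood test in R 4.3.3, with 1 mean per group over all 12 libraries and the contrast AD minus Sham. The Benjamini-Hochberg adjusted p over all genes had to be under 0.05. Every adjusted p is from edgeR unless another tool is named. The edgeR test was tried on simulated data first. Of 100 genes changed 2-fold it called 13, and of 100 changed 4-fold 64, with 5 unchanged genes called. A gene that did not pass may therefore still differ. Whether the edgeR test calls like shares in the libraries used here was not tested. Their median SD of log2 CPM was 0.4 in AD and 0.21 in Sham, and the AD libraries differed in region markers. DESeq2 1.42.0, limma 3.58.1 (voom), other scalings and filters, a replicate block, AD and Sham alone, each library left out, AD-3 alone and a cortical covariate were the alternatives. CPM are per TMM-scaled library, and levels of different genes are not compared, since lengths were not used.

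No pair of replicates agreed within sampling noise: the chi-square per degree of freedom was 17.43 or more. Same-numbered AD and Sham libraries did not deviate together (correlations -0.025, 0.081, -0.009 and 0.001). The genes named are the 15 with the smallest p in each direction under the conditions in the text, up to 4 called members of each gene list, 6 genes that stand out in each AD library, and 12 fixed genes; others are said to be picked out after their values were seen. A few of the genes this rule names are not reported here. The members and lists were chosen with earlier results of these data known. Promoter sequences are from RefSeq.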

Additional observations from a re-analysis of the deposited data

Results flagged for a closer look

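In 9 of 194 groups of 4 libraries examined, the highest or lowest library stood so far from the rest that its gap to the nearest other library, as a share of the whole range, passed Dixon's limit of 0.829. Chance flags about 1 in 20 such groups. Among the named genes these were Relt in AD (share 0.966, AD-3 at 30.2 CPM against 23.5 to 23.7), Ret in AD (0.847, AD-2 at 112 against 61.3 to 67.2) and Cckbr in AD (0.923, AD-1 at 2.63 against 5.66 to 6.03). Among list means in log2 CPM, the hypothalamus list in AD gave 0.862, with AD-4 at 4.69 against 0.53 to 1.10. Hypoxia genes in AD gave 0.833 (AD-3 at 5.71 against 4.48 to 4.69) and glycolysis in AD 0.890 (AD-3 at 8.42 against 7.82 to 7.89). Red blood cell genes gave 0.836 in AD (AD-3 at 5.36 against 3.94 to 4.18) and 0.857 in Sham (Sham-2 at 4.38 against 3.75 to 3.84). Homeostatic microglia in Sham gave 0.847 (Sham-2 at 3.90 against 3.65 to 3.69).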

How the results depend on the processing

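The 1174 calls (579 higher, 595 lower) became 2600 with DESeq2 (1484 and 1116), 2363 with AD and Sham libraries only (1136 and 1227) and 198 at an adjusted p under 0.01 (82 and 116). Leaving out 1 library each gave 302 to 2329 calls, 130 to 1110 higher and 170 to 1227 lower. Higher calls were 262 with limma voom, 924 with the cortical covariate and 972 with AD-3 as the only AD library, where lower calls were 318. With the replicate block, calls were 851, of them 307 higher, though the labels do not say whether the numbers pair the samples. Of the 1174 calls, 1143 were shared with DESeq2, 770 with limma voom and 717 with the replicate block. All 30 genes named by smallest p kept their direction under these fits. They had been chosen for no overlap and a call in each fit that left out 1 of the 8 libraries, which favours this outcome.

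Named genes changed sign with AD-3 as the only AD library: Ache -0.26, Irx1 -1.20, Cartpt -2.04, Shox2 -0.64, Gbx2 -4.09, Tcf7l2 -0.35 and Pmch -5.89 on the log2 scale. With the cortical covariate they were Slc6a3 -2.42, Slc6a4 -3.76, Irx2 -1.06, Irx1 -0.25, En2 -1.85, Shox2 -0.51, Tcf7l2 -0.03 and Rtn4rl2 3.0. Among the changes with AD-3 alone, several are of genes near the floor. Gbx2 and Pmch had no counts in AD-3 and at most 0.102 and 0.368 CPM in Sham. Irx1, at 0.0923 CPM in AD-3, lay within the Sham range of 0 to 0.447 CPM. The sizes of these changes are thus uncertain. With single libraries left out Ptgs2 ran from -2.66 to 1.62, the lowest being without AD-3. The cause was not tested. With 4 libraries a group, precision is limited by the spread between libraries.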
